A study of Mus musculus with 4 samples.

Results

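T-box transcription factors were followed in the hearing organ of the mouse embryo, the organ of Corti of the cochlea, with and without loss of Tbx2. The set held the 8 genes Tbx1, Tbx2, Tbx3, Tbx4, Tbx5, Tbx15, Tbx18 and Tbx20. Every probe that carried one of these names in the array files was taken, which gave 10 probes of 39429 on the array (8 of 29924 gene names). Tbx20 had 3 probes and each of the other genes had 1. RNA was measured on 4 dual-colour Agilent arrays, each with 1 pool of Sox2-Tbx2LOF organs of Corti and 1 control pool, so that n = 4 pools per genotype. Sox2-Tbx2LOF embryos were of the genotype Sox2(creERT2);Tbx2(fl/fl), in which a tamoxifen-inducible recombinase inserted into the Sox2 gene acts in Sox2-expressing cells on the floxed Tbx2 alleles. Controls were Tbx2(fl/n.d.), with the second allele not determined in the labels, and per the study's methods they lacked the recombinase. Per the same methods, both parents of the mutants were Tbx2(fl/fl), and the dams carried a fluorescent R26 reporter on both alleles. Littermate controls from these crosses would thus be Tbx2(fl/fl) and carry the reporter. The labels do not state that the control pools were littermates. The CreERT2 insertion in Sox2 was carried by the mutants alone, and its effect cannot be told apart from that of the Tbx2 deletion. All embryos were on the NMRI background, their dams had received 4 mg of tamoxifen by mouth at embryonic day E16.5 and, per the methods, progesterone, and the basal part of the epithelium was taken at E18.5. The Sox2-Tbx2LOF pool was labelled with Cy3 on arrays 1 and 3 and with Cy5 on arrays 2 and 4, and the pools were female on arrays 1 and 2 and male on arrays 3 and 4.

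T-box proteins bind DNA through a conserved domain that gives the family its name, and they activate or repress genes in many developing organs. TBX2 and TBX3 act mainly as repressors and can stand in for each other in several tissues, whereas TBX4 and TBX5 are best known from the limbs, the lung and the heart. TBX1, TBX15, TBX18 and TBX20 form another branch of the family, with roles in the ear and pharynx, the skeleton, mesenchyme and the heart, respectively. In the cochlea, Tbx2 is known from inner hair cells and the supporting cells around them. The comparison asked which T-box genes were measured beside Tbx2 and whether any of them shifted when Tbx2 was lost.

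The probes are shown because they decide which part of each transcript was read. Sequences are those of the array files, written 5′ to 3′, and for all but one probe the last 30 of 60 bases are given. Capitals mark a polyadenylation signal where the shown stretch held one.
Tbx2, A_55_P2010773: aaatAATAAAaacgctatcatgcgatttga
Tbx3, A_55_P1969002: agggacttggttcaaacgaccatgaaaggc
Tbx18, A_51_P438711: tctgaggtatctatagcAATAAAggcttag
Tbx1, A_55_P2051716: ccgatttcataaacggttttgcctcttttg
Tbx20, A_55_P2162503: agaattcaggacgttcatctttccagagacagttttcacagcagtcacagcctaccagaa
The whole Tbx20 probe A_55_P2162503 had no stop codon in any of the 3 forward frames. The Tbx2 probe (chromosome 11, 85655391 to 85655450, plus strand, build mm9) begins 3502 bases into its transcript, and its last 30 bases hold the letters of a polyadenylation signal, as do those of the Tbx18 probe. The sources used here do not state which part of Tbx2 is floxed. A probe at this place may lie outside the deleted part, and it then does not check the deletion. The study checked the loss by immunofluorescence with the same tamoxifen stage. It reported TBX2 protein as fully lost at E18.5 from those hair and supporting cells in which the recombinase had acted. That is protein seen in single cells, whereas the probe reads RNA of whole pools. The longest run of bases that any of the 10 probes shared with a probe of another T-box gene in the set was 7 bases. The probes come from different parts of their transcripts, and the transcripts of the other genes were not searched for a match. This run therefore does not show how specific a probe is.

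Of the 8 genes, 6 were well above background and 2 were not. Tbx1, Tbx2, Tbx3, Tbx4 and Tbx18 passed the scanner's test in either channel of all 4 arrays, and Tbx15 passed in the Sox2-Tbx2LOF channel of 3 arrays and in the control channel of 3 arrays. The Tbx5 probe (chromosome 5, 120334087 to 120334146) was not well above background on any array in either genotype, nor was any of the 3 Tbx20 probes. The intensity of the Tbx2 probe, in scanner units, lay between 8407 and 12818 over the 8 pools, where its local background lay between 29.5 and 77.3. The dim Tbx4 probe stood above its background in all 8 pools, with 126 to 137 in green (background 29.5 to 36.3) and 156 to 185 in red (background 67.3 to 78.0). The Tbx15 probe gave 52.0 to 63.4 in green and 82.9 to 112 in red. Tbx5 gave 35.6 to 38.8 in green and 75.1 to 81.8 in red, beside a local background of 34.0 to 37.5 and of 71.5 to 83.0. Each probe is set here against its own background and not against the other probes, because probes differ in how well they bind. Per the methods, spiral ligament and spiral ganglia had been taken off the basal tissue. How much of a T-box signal came from which cell type was not tested. In such bulk samples, fewer cells of a type and less RNA per cell cannot be told apart.

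**Figure D1:**
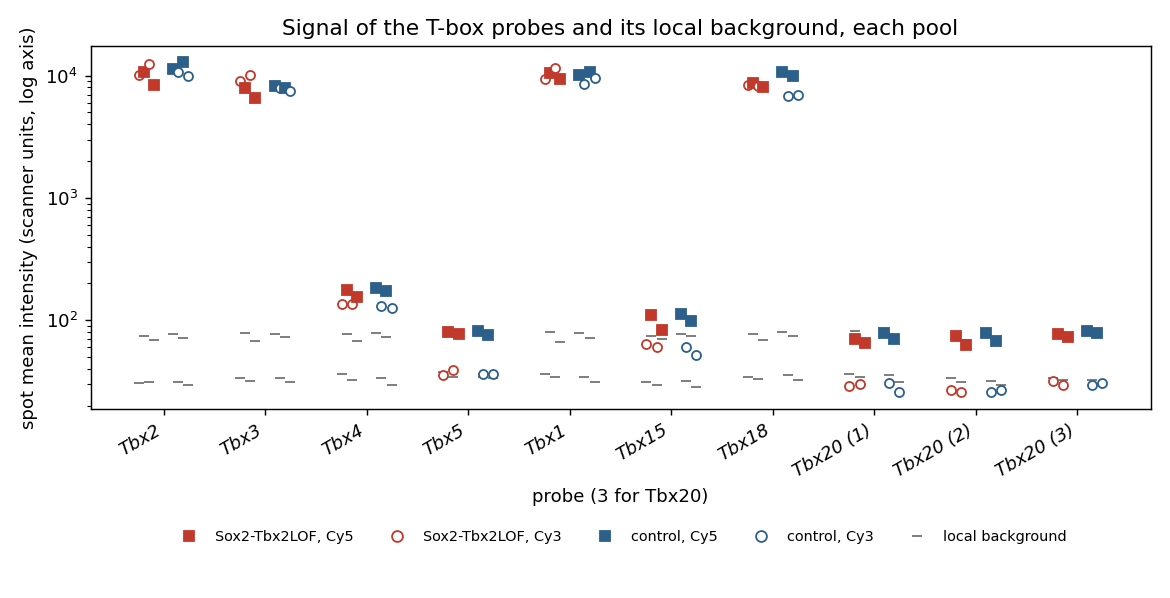
Mean spot intensity (scanner units, log axis) of the 10 T-box probes in each of the 4 Sox2-Tbx2LOF pools (red) and 4 control pools (blue), with open circles for Cy3 and filled squares for Cy5. Grey dashes give the local background of each point, at which the Tbx5 and Tbx20 probes lie, while Tbx15 lies just above it, Tbx4 somewhat further above it and the other 4 genes far above it.

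The wider state of the arrays was even. Median probe signals were 346 to 412 in the Sox2-Tbx2LOF channels and 315 to 411 in the control channels, no spot was saturated, and 3.23% to 3.56% of the probe spots on an array carried an outlier flag. Markers of the labelled tissue were well above background in all 8 pools for 5 of 5 general hair cell genes and 5 of 5 supporting cell genes. Those of inner hair cells passed for 5 of 5 genes and those of outer hair cells for 4 of 5. Markers of fibrocytes and other mesenchyme (9 of 9), cartilage (4 of 4), melanocytes (4 of 4), neurons (5 of 5) and blood (3 of 4) were also well above background in all 8 pools. So were those of glia (4 of 4), vessels (4 of 4), macrophages (3 of 3), roof epithelium (2 of 2), stria vascularis (3 of 4) and skeletal muscle (3 of 4). Nothing in the labels states that pools of one number came from the same litters. The 4 arrays were on 1 slide and came from 1 scan.

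Tbx2 RNA as read by its probe differed little between the genotypes. The log2 level of a probe in a channel, after normalization within and between arrays, was 13.34, 13.29, 13.47 and 13.11 for Tbx2 in the Sox2-Tbx2LOF pools of arrays 1 to 4. In the control pools of the same arrays it was 13.40, 13.53, 13.49 and 13.41. The Sox2-Tbx2LOF pool was the lower one on every array, yet the groups overlapped, since the Sox2-Tbx2LOF pool of array 3 lay above 2 of the control pools. The log2 ratio of Sox2-Tbx2LOF over control was −0.06, −0.24, −0.02 and −0.30. Its mean was −0.15 ± 0.14 (SD, n = 4; SE 0.047, 95% confidence interval −0.26 to −0.05), a change of −10.0% with an interval of −16.5% to −3.13%. The unadjusted p of limma was 0.0106 and the adjusted p was 0.313. Among all 28079 probes tested, 3.38% had an unadjusted p as low as that of Tbx2 or lower, and 4.58% were lower on 4 of 4 arrays. The interval leaves out a fall of the probe signal by a factor of 1.5, the smallest change that was called.

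The size of the Tbx2 difference went with the dye. The mean log2 ratio was −0.04 on the 2 arrays with the Sox2-Tbx2LOF pool in Cy3 and −0.27 on the 2 arrays with it in Cy5. The term for the dye in the limma fit had an unadjusted p of 0.0356 for Tbx2 and an adjusted p of 0.179, while 3.72% of the tested probes had an adjusted dye p under 0.05. Each dye orientation held 1 female and 1 male array, and the mean was −0.15 in the female pools and −0.16 in the male pools. The unadjusted p of Tbx2 passed 0.05 in the fit with a dye term and missed it without that term.

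**Figure D2:**
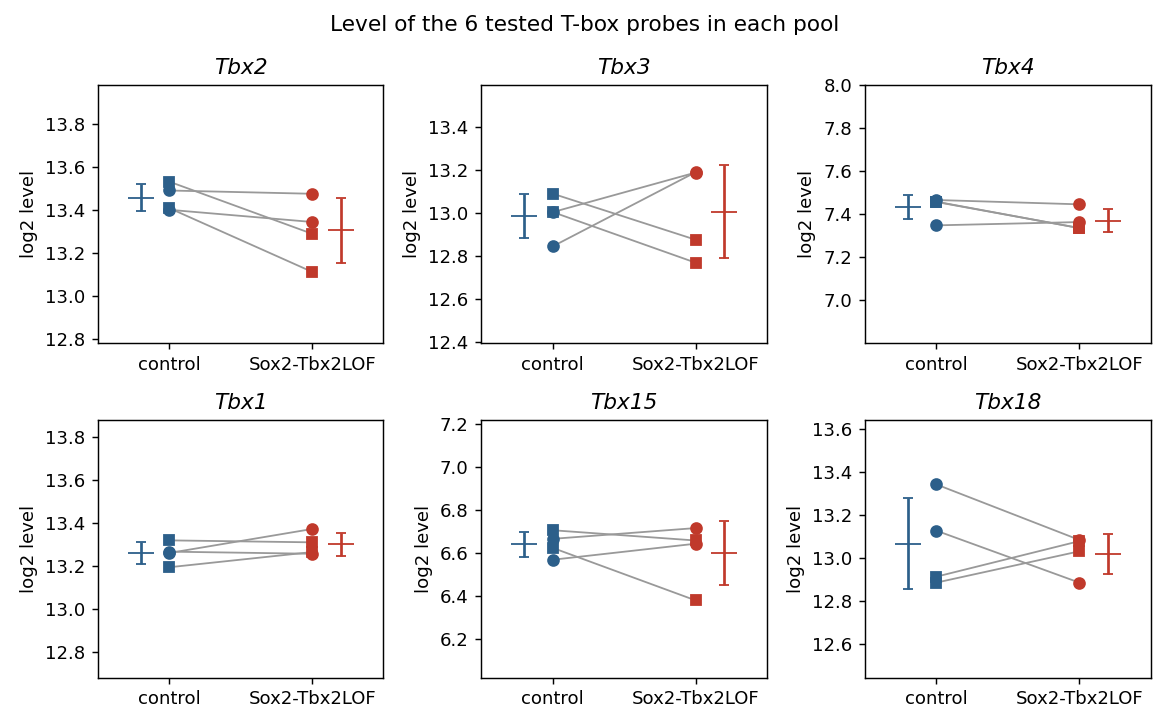
Log2 level after normalization (own axis for each gene, all spanning the same range) of the 6 tested T-box probes in each control pool (blue) and Sox2-Tbx2LOF pool (red), with grey lines joining the pools of an array, circles for arrays with the Sox2-Tbx2LOF pool in Cy3, squares for those with it in Cy5, and bars for mean and SD (n = 4). The lines of Tbx2 all go down towards Sox2-Tbx2LOF, those of Tbx3 and Tbx18 cross by dye, and the groups overlap for every gene.

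Of the 6 T-box probes that were bright enough to be tested, 0 were called with limma, where a call needed both an adjusted p under 0.05 and a fold of 1.5 or more. Over all tested probes the share called was 0.249% (0.128% lower and 0.121% higher), so that a count over 6 probes cannot be set apart from it. At an unadjusted p under 0.05, 1 of the 6 passed, which was Tbx2, where the share over all tested probes was 7.12%. The 4 probes of Tbx5 and Tbx20 were not tested.

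The ratio of Tbx3, the closest relative of Tbx2, differed in sign between the dye orientations, each of which rests on 2 arrays with their own pools. The log2 level of its probe (chromosome 5, 120134511 to 120134570) was 13.19, 12.88, 13.19 and 12.77 in the Sox2-Tbx2LOF pools and 13.00, 13.09, 12.85 and 13.00 in the control pools. The log2 ratio was 0.18 and 0.34 on the arrays with the Sox2-Tbx2LOF pool in Cy3, and −0.21 and −0.24 on those with it in Cy5. The mean was 0.02 ± 0.29 (SD, n = 4; 95% confidence interval −0.09 to 0.13, limma adjusted p 1). The groups overlapped, and the interval reaches from −6.33% to 9.75% of the control. Tbx3 was the 1 member whose dye term passed, with an adjusted p of 0.0419 in limma. The confidence interval rests on the fit that takes this dye term out, and without it the unadjusted p was 0.851.

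Tbx4 and Tbx5, the other 2 genes of the Tbx2 branch, were dim or not measured. Tbx4 lies beside Tbx2 on chromosome 11 in the mouse, and the probes of the 2 genes were 74.1 kb apart in mm9. Its log2 level was 7.45, 7.33, 7.36 and 7.34 in the Sox2-Tbx2LOF pools and 7.47, 7.46, 7.35 and 7.46 in the control pools. The ratios of −0.02, −0.12, 0.02 and −0.12 gave a mean of −0.06 ± 0.07 (SD, n = 4; 95% confidence interval −0.17 to 0.04, limma p 0.214, adjusted p 1). The groups overlapped, with 3 of 4 arrays lower. Background correction with an offset pulls ratios of dim probes towards 0, so the narrow interval of Tbx4 holds for the scale used here. Tbx5 lies beside Tbx3 on chromosome 5, its probe being 199.6 kb away, and since it was at background in both genotypes no ratio is given.

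No gene beside Tbx2 was called either. At distances of −123 kb to 109 kb from the Tbx2 probe, counted along the chromosome, the array held 10 other probes, of which 8 were tested and 0 passed an adjusted p of 0.05 in limma. At an unadjusted p under 0.05 none passed, the lowest being the 0.214 of Tbx4. The share with an adjusted p under 0.05 was 0.987% over all tested probes. The 2 probes of Bcas3, the gene on the other side of Tbx2, averaged log2 ratios of −0.02 ± 0.07 and 0.0045 ± 0.07 (SD, n = 4).

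Tbx1, a gene of ear and pharynx development that is known from the otic vesicle on, was the most even of the bright members. Its probe (chromosome 16, 18581807 to 18581866, minus strand) had log2 levels of 13.25, 13.26, 13.37 and 13.31 in the Sox2-Tbx2LOF pools and of 13.26, 13.19, 13.26 and 13.32 in the control pools. All 8 pools lay within a narrow band, and the groups overlapped. The ratios of −0.01, 0.07, 0.11 and −0.01 had a mean of 0.04 ± 0.06 (SD, n = 4; 95% confidence interval −0.07 to 0.15, limma adjusted p 1). Its means were 0.05 with the Sox2-Tbx2LOF pool in Cy3 and 0.03 with it in Cy5.

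Tbx18 and Tbx15 are known from mesenchyme, and in the ear Tbx18 is needed for otic fibrocytes. The Tbx18 probe (chromosome 9, 87599514 to 87599573, minus strand) had log2 levels of 13.08, 13.03, 12.88 and 13.08 in the Sox2-Tbx2LOF pools and of 13.34, 12.88, 13.13 and 12.91 in the control pools. Its ratio was −0.26 and −0.24 with the Sox2-Tbx2LOF pool in Cy3, and 0.15 and 0.17 with it in Cy5, which is the mirror of Tbx3. The mean was −0.05 ± 0.23 (SD, n = 4; 95% confidence interval −0.15 to 0.06, limma adjusted p 1), and the dye term had an adjusted p of 0.052. For Tbx15 (chromosome 3, 99157901 to 99157960) the log2 levels were 6.71, 6.66, 6.64 and 6.38 in the Sox2-Tbx2LOF pools and 6.66, 6.70, 6.57 and 6.62 in the control pools. The Sox2-Tbx2LOF pool of array 4 was the lowest of the 8, and the others overlapped. The Tbx15 ratios of 0.05, −0.05, 0.07 and −0.24 gave a mean of −0.04 ± 0.14 (SD, n = 4; 95% confidence interval −0.16 to 0.08, limma adjusted p 1). Markers of fibrocytes and other mesenchyme had a higher mean ratio in Sox2-Tbx2LOF for 9 of 9 genes, with a median of 0.15 (−0.04 over the 6 T-box genes, 0.0024 over all tested probes) and 0 past an adjusted p of 0.05 in limma, while 5 of the 9 had an unadjusted p under 0.05 (0.987% and 7.12% of all tested probes). The log2 ratio of their summed levels ran from 0.04 to 0.34 over the 4 arrays. Its part in the T-box values was not tested. A higher mean ratio was not particular to mesenchyme, as it was also seen for 4 of 4 cartilage, 5 of 5 neuron and 4 of 4 vessel markers. All tested markers of melanocytes (4), blood (3), macrophages (3), stria vascularis (3) and roof epithelium (2) had a lower one.

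**Figure D3:**
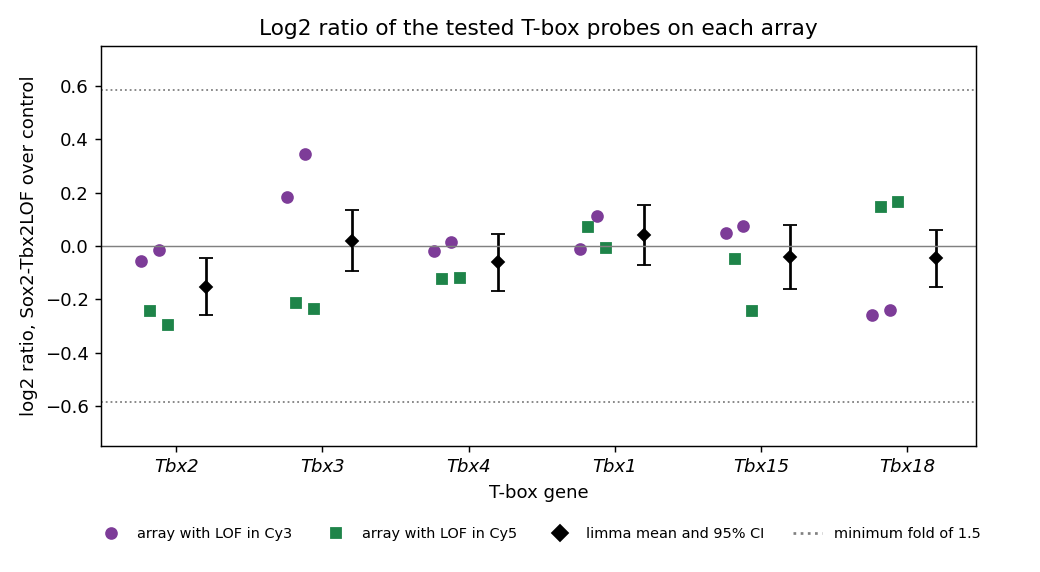
Log2 ratio of Sox2-Tbx2LOF over control of the 6 tested T-box probes on each array (purple circles, Sox2-Tbx2LOF in Cy3; green squares, in Cy5), with the limma mean and 95% confidence interval (black) and dotted lines at a fold change of 1.5. No interval reaches a dotted line, Tbx2 is the only one of the 6 whose interval leaves out 0, and Tbx3 and Tbx18 split by dye in opposite directions.

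Tbx20, a heart gene, was read by 3 probes on the minus strand of chromosome 9. Each was annotated to a different transcript of the gene, and they start at bases 1201, 1718 and 3882 of their own transcripts. None was well above background on any array in either genotype, so the 3 probes gave the same reading, and no fold change is given. The normalized levels of the 3 probes over the 8 pools lay between 5.94 and 6.21.

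The sex of the pools made no called difference to these genes. The term for sex in the limma fit had an adjusted p of 1 for each of the 6 probes, and the lowest unadjusted p was 0.47, for Tbx15. Over all tested probes 0% passed after adjustment and 2.01% had an unadjusted p under 0.05. With 2 arrays per sex this fit has 1 residual degree of freedom before moderation and can show only large differences.

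Further T-box genes were on the array. Of 9 further T-box genes that were on the array by name, 6 were tested (Mga, Tbr1, Tbx6, Tbx10, Tbx21 and Tbx22) and 0 passed an adjusted p of 0.05 in limma, with 1 of them under 0.05 before adjustment, counts that cannot be set apart from the 0.987% and 7.12% of all tested probes. That one was Tbx21, a gene known from T helper cells, with log2 ratios of −0.26, −0.20, −0.19 and 0.04 and a mean of −0.15 ± 0.13 (SD, n = 4; limma adjusted p 0.475). Eomes and Tbx19 were not well above background on any array.

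Known protein partners of T-box factors, among them TLE co-repressors, HP1 proteins of the Cbx genes and histone deacetylases, were examined as the other side of the same machinery. Of 16 such genes 14 were tested, 6 had a higher and 8 a lower mean ratio, and 0 passed an adjusted p of 0.05 in limma or an unadjusted p of 0.05, which again cannot be set apart from 0.987% and 7.12% of all tested probes. The median was −0.01. The largest mean ratio was that of Hmgb2, a chromatin protein, at −0.11 ± 0.18 (SD, n = 4; limma adjusted p 0.834).

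Genes known from other organs as targets of TBX2 or TBX3 were also examined. Of 13 genes, all of them tested, 10 had a higher and 3 a lower mean ratio, with a median of 0.08 against 0.0024 over all tested probes. In limma 1 of the 13 passed an adjusted p of 0.05, and it fell. It was Il33, an alarmin cytokine that TBX2 represses in the lung, with log2 ratios of −1.43, −0.82, −1.11 and −0.86 and a mean of −1.06 ± 0.28 (SD, n = 4; limma adjusted p 7.43e-05). Over all tested probes, 0.538% passed the same threshold with a lower ratio, and 0.987% passed it in either direction. At an unadjusted p under 0.05 in limma, 8 of the 13 passed, 5 of them with a higher ratio (Frzb, Ndrg1, Ccn4, Gja5 and Shisa3) and 3 with a lower one (Il33, Gja1 and Cdkn2a), where the share over all tested probes was 7.12%. The list was chosen with earlier results of these data known, and the study had reported Il33 as lowered in the same arrays. The counts are therefore a description and cannot show that targets changed more often than other genes. The highest ratio was that of Frzb, a secreted inhibitor of Wnt signals, which was higher on 4 of 4 arrays at 0.21, 0.58, 0.0077 and 0.28, with a mean of 0.27 ± 0.24 and an adjusted p of 0.127 in limma. In the same pools, markers of fibrocytes and other mesenchyme had a higher mean ratio for 9 of 9 genes, with a median of 0.15. The tested markers of cartilage, neurons and vessels were also all higher, and those of melanocytes, blood and macrophages all lower. The part of mesenchyme or other tissue in the target values was not tested. Tbx2 is known from inner hair cells and also from the supporting cells around them. Markers of inner hair cells passed an adjusted p of 0.05 in limma for 4 of 5 genes, all of them lower. The median log2 ratio of the 5 was −0.66, and 0.538% of all tested probes were lower at that threshold. The remaining marker, Calb2, had a mean log2 ratio of 0.0059. The study had named Slc17a8, Cabp2 and Fgf8 as lowered in these same arrays, so the count is a description and no separate support. The 4 lower markers and the Tbx2 probe were measured in the same pools, and the part of the lower marker levels in the Tbx2 value was not tested.

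**Figure D4:**
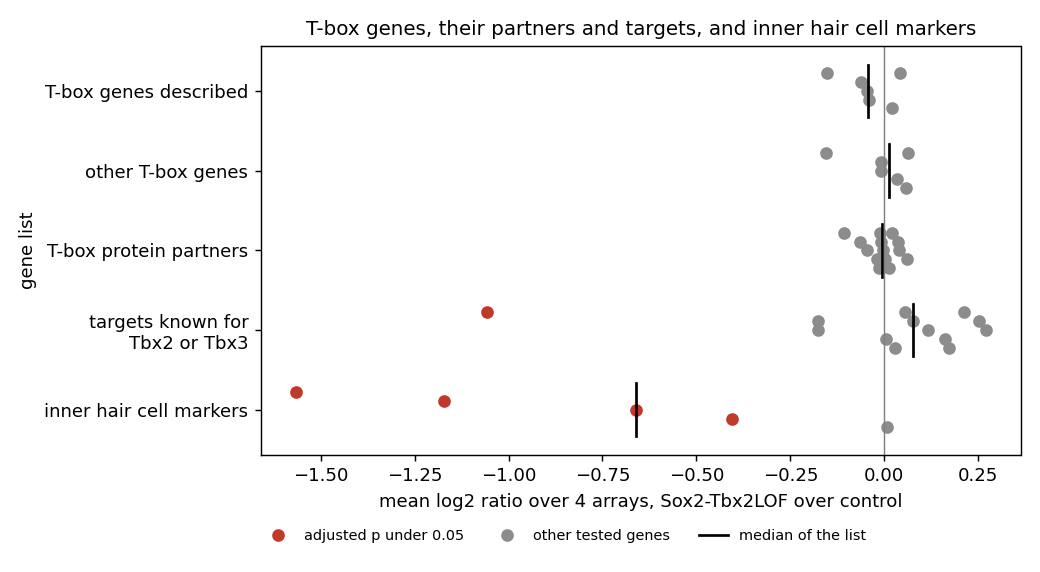
Mean log2 ratio over 4 arrays of each tested gene in 5 lists, 1 point per gene, with genes past an adjusted p of 0.05 (limma) in red and the median of a list as a black bar. No T-box gene or partner is red, while 1 of 13 targets (Il33) and 4 of 5 inner hair cell markers are.

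Which other probes followed Tbx2 most closely across the 8 pools was ranked by Pearson correlation of the channel levels after removal of the mean of each dye, over 28078 other tested probes. Probes without a reference gene symbol were left out of the choice. The nearest 5 of the others were Faf2 (r 0.982), Ildr1 (0.980), Rfx8 (0.977), Homez (0.972) and Hist1h3g (0.958), with Spearman correlations of 0.976, 1, 0.952, 0.976 and 0.952. These are the highest values of named genes among 28078 probes, over 8 pools that share 4 arrays, and they are given as a description. The mean log2 ratios of the 5 lay between −0.12 and −0.04, with limma adjusted p from 0.618 to 1. Among the T-box genes, the Pearson correlation with Tbx2 was 0.57 for Tbx15, 0.33 for Tbx3, 0.24 for Tbx4, 0.11 for Tbx18 and −0.31 for Tbx1. No other T-box gene was among the 5 nearest probes of named genes.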

How the data were processed

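RNA of 4 Sox2-Tbx2LOF and 4 control pools was compared on 4 dual-colour arrays, with groups, dyes and sexes taken from the labels. The authors deposited linear spot intensity values that were not normalized, extracted per the submitters' processing notes with Agilent Feature Extraction 10.7.3.1, and beside them a log10 ratio of red over green that the authors' software had corrected. The deposited series matrix holds signed fold change values of unstated processing, whose direction was settled against the scanner ratios (r 0.903 to 0.926 across probes). Positions are mm9, as deposited.

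Intensities were corrected with normexp (offset 50) and loess within arrays (limma 3.58.1, R 4.3.3). Flagged spots (7 of those of the members) were left out and the up to 4 spots of a probe averaged. Channel levels were further quantile normalized on average brightness. Probes well above background in more than 0.5 of their spots on at least 3 of 4 arrays in either channel were tested (28079 of 39429) with lmFit and eBayes, a dye term and Benjamini-Hochberg adjustment over them. Called meant an adjusted p under 0.05 and a fold of at least 1.5. All p-values are two-sided. The study's methods name an unpaired comparison; an unpaired limma fit was among the alternatives. A gene with several probes was represented in lists by its brightest tested probe. Precision is limited by the number of arrays and, for dim probes, by signal over background. Code was tested on simulated data.

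Members and lists were chosen with earlier results of these data known. Named were every member probe, genes of the lists past the adjusted threshold or, failing these, with the largest ratio, and the 5 probes with a reference gene symbol most correlated with Tbx2. Mga, Tbr1, Tbx6, Tbx10, Tbx22, Eomes, Tbx19, the targets other than Il33, Bcas3 and Calb2 were named after their values were seen.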

Additional observations from a re-analysis of the deposited data

Results flagged for a closer look

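In 3 of the 30 sets of 4 values examined (levels of each genotype and ratios of each member probe), 1 value lay far from the other 3, where chance marks about 1 in 20 sets. The ratios of a probe are the differences of its levels, so the 30 sets are not independent and the count cannot be set apart from that rate. The log2 level of Tbx4 in the control pool of array 3 was 7.35, below the other control pools at 7.46 to 7.47. For the Tbx20 probe A_52_P429876 the control pool of array 1 had 6.08, above the other control pools, the lowest of which had 5.99. For the Tbx20 probe A_55_P1976310 the Sox2-Tbx2LOF pool of array 2 had 6.09, above the other Sox2-Tbx2LOF pools, the highest of which had 6.01. Both Tbx20 probes were not well above background.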

How the results depend on the processing

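Under all 16 alternatives 0 T-box probes were called with limma, and with all T-box genes of the array added 0 of 13 tested probes were. The log2 ratio of Tbx2 stayed between −0.18 and −0.14 (adjusted p 0.269 to 1), and between −0.17 and −0.14 when 1 array was left out. Its unadjusted p passed 0.05 except without a dye term, without array 4, and without the replicate block, that is with the channels of an array taken as unpaired pools, where the ratio was again −0.15. With the channels unpaired the count of T-box calls was also 0. The sign of 2 small ratios turned. Tbx3 ran from −0.020 (without array 3) to 0.060 (without array 1) when 1 array was left out, and Tbx15 ran from −0.091 (without array 2) to 0.0073 (without array 4) and was listed at a log2 ratio of 0 on all arrays in the deposited fold changes. Tbx1 ran from 0.010 (without array 3) to 0.071 (without array 1). The log ratio of the scanner software gave −0.17 for Tbx15, and the cause was not tested. Requiring both channels of all 4 arrays to be well above background left 5 T-box probes, without Tbx15. Over all probes the calls numbered 70, but 124 with the scanner software's log ratio, 2 with the deposited fold changes, 106 without array 1 and 277 without a minimum fold. Signal near background limits Tbx4 and Tbx15 and leaves Tbx5 and Tbx20 unmeasured.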

Other observations

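Genes of the wider family with several probes did not always read alike. Of the 2 Tbx22 probes, A_55_P2089565 was well above background in all 8 pools (mean log2 ratio 0.06 ± 0.19, SD, n = 4) and holds a run of 16 bases of alternating G and A. The other, A_55_P1990231, was well above background in 2 Sox2-Tbx2LOF pools and 1 control pool (0.06 ± 0.04). Of the 2 Tbr1 probes, A_55_P2112584 was well above background in all pools and A_55_P2405129 in none. The 2 Tbx6 probes were well above background in all pools, with mean ratios of −0.0082 ± 0.17 and 0.00061 ± 0.06 (SD, n = 4).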
